A study of Mus musculus with 18 samples.

Results

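Potassium channels are the largest family of ion channels in neurons, and the genes that encode them carry symbols beginning with Kcn. The 94 genes described here are those whose symbol begins with Kcn and that have a transcript annotated as protein_coding in the RNA files, out of 54752 genes in those files and 21904 genes with such a transcript. A further 5 Kcn symbols had no protein_coding transcript and were left out. All 94 members were also present in the ribosome footprint files, which list 22523 genes. They fall into 21 subfamilies by the letters that follow Kcn, and 77 of them encode subunits that line the pore.

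As background, pore-forming subunits assemble around a narrow selectivity filter that passes potassium ions, and the subfamilies differ in what opens them: voltage (Kcna, Kcnb, Kcnc, Kcnd, Kcnh, Kcnq), calcium or sodium inside the cell (Kcnma, Kcnn, Kcnt), G proteins or ATP (members of Kcnj), or no strong gate at rest (Kcnk). Other members are silent subunits that work only beside Kcnb channels (Kcnf, Kcng, Kcns, Kcnv) or auxiliary proteins that set gating and traffic (Kcnab, Kcne, Kcnip, Kcnmb). In the cerebellum, fast Kcnc channels support the high firing rates of Purkinje cells, Kcna channels sit at basket cell terminals, and Kcnd channels with Kcnip partners shape excitability in granule cells.

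The study asked how loss of GTPBP1 or GTPBP2, a pair of GTPases that act when ribosomes stall, alters the cerebellum of mice short of 1 brain arginine tRNA. RNA-seq and ribosome profiling, which sequences the messenger fragments that ribosomes protect, were done on cerebella of 3-week-old C57BL/6J mice with 3 libraries per genotype and assay, 18 libraries in all. All 3 genotypes were on the C57BL/6J background, which carries a mutation in the n-Tr20 arginine tRNA gene, so the B6J controls share this tRNA defect and differ from the mutants at the Gtpbp genes. The groups were B6J mice with intact Gtpbp1 and Gtpbp2; B6J.Gtpbp1-/- mice, whose backcrossed allele carries a PGK-Neo cassette in place of exon 4 and a stretch of exon 3; and B6J-Gtpbp2-/- mice, homozygous for the nmf205 null point mutation. Both alleles are inherited and present in every cell type, mice of both sexes were used, and each footprint library came from 1 cerebellum.

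RNA libraries held 37794333 to 52114145 estimated counts and footprint libraries 3630823 to 10442573 counts. The labels place all 9 RNA libraries in Batch 1 and all 9 footprint libraries in Batch 2. Each genotype comparison was therefore made within 1 batch, while assay and batch cannot be told apart. RNA levels are given in TPM, which correct for transcript length, and footprints in CPM, which correct for library size alone. Fold changes are on the log2 scale with their standard error, from edgeR's quasi-likelihood test on counts. Adjusted p-values (Benjamini-Hochberg) were computed over all genes tested, and a gene was called at an adjusted p of at most 0.05. Fold changes, adjusted p-values and calls are from this test on the 6 libraries compared unless another tool or setting is named.

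The targeted genes were examined before the channels. Gtpbp1 RNA was at 71.0, 77.8 and 66.7 CPM in B6J and at 44.0, 41.7 and 43.9 CPM in B6J.Gtpbp1-/- (log2 fold change -0.73 ± 0.08, edgeR adjusted p = 5.9e-05), while the B6J-Gtpbp2-/- libraries held 58.6, 72.1 and 65.7 CPM. Gtpbp1 footprints were at 73.6, 117 and 84.8 CPM in B6J and 32.0, 25.5 and 35.6 CPM in B6J.Gtpbp1-/- (-1.57 ± 0.23, adjusted p = 0.0068). Every B6J.Gtpbp1-/- library lay below every other library in both assays on the CPM scale. In TPM, which depends on how reads are split between transcripts, Gtpbp1 RNA was at 43.5, 38.4 and 40.4 in B6J and 34.5, 35.1 and 41.1 in B6J.Gtpbp1-/-, so the groups overlapped. Gtpbp2 RNA, which a point mutation need not lower and which therefore does not check that label, was at 85.9, 74.0 and 88.1 CPM in B6J, 65.5, 75.4 and 72.7 CPM in B6J-Gtpbp2-/- (-0.22 ± 0.09, adjusted p = 0.19) and 109, 100 and 104 CPM in B6J.Gtpbp1-/- (0.34 ± 0.08, adjusted p = 0.015). In TPM it stood higher in the mutant, at 114, 91.7 and 99.0 in B6J against 127, 145 and 151 in B6J-Gtpbp2-/-, so its direction depended on the unit. Gtpbp2 footprints were at 44.7, 36.1 and 38.4 CPM in B6J, 36.2, 43.3 and 58.3 CPM in B6J.Gtpbp1-/- and 28.9, 26.4 and 7.54 CPM in B6J-Gtpbp2-/-. Every B6J-Gtpbp2-/- library lay below every other library, and the difference from B6J was not called (-0.97 ± 0.44, adjusted p = 0.32).

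The tissue label was set against markers of cerebellar cells. In the B6J RNA libraries 10 granule neuron genes summed to 3942, 3994 and 3991 TPM and 8 Purkinje cell genes to 6388, 6689 and 5609 TPM, and no marker of either list was at 0 in all libraries. Choroid plexus RNA, which comes from tissue that adheres to the cerebellum, differed widely between libraries of the same genotype. Its 7 genes, led by Ttr, summed to 3361, 2218 and 478 TPM in B6J, 3753, 2801 and 808 TPM in B6J.Gtpbp1-/- and 152, 2282 and 1494 TPM in B6J-Gtpbp2-/-. Marker lists of skeletal muscle (6 genes, 5.37 to 14.2 TPM in sum) and bone (5 genes, 23.0 to 50.4 TPM) were low in every RNA library, and none of these 3 lists had a gene at 0 in all libraries. In RNA of either mutant 0 genes of the 3 lists were called by edgeR or by DESeq2, and 0 had an unadjusted p under 0.05.

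In B6J cerebellum 92 of the 94 members had a mean TPM above 0, 63 were above 1 TPM, 37 above 10 TPM and 7 above 100 TPM. The 10 most abundant members made up 54.4% of all Kcn TPM and the top 20 made up 80.8%. Among the top 10 were the fast voltage-gated channel Kcnc1 (mean 180 TPM), the tandem-pore channel Kcnk1 (162 TPM), the auxiliary subunit Kcnab1 (147 TPM), the Kcnd partner Kcnip4 (129 TPM), the sodium-activated channel Kcnt1 (120 TPM) and the A-type channel Kcnd2 (114 TPM). Kcnab2, Kcna2 and the calcium-activated channel Kcnma1 were also among them, with means of 96.0, 88.2 and 88.1 TPM.

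Summed by subfamily, Kcnc RNA was the most abundant in B6J at 494 ± 56.8 TPM (SD, n = 3), 19.0% of all Kcn TPM. Kcnj came next at 350 ± 13.9 TPM, then Kcnk at 281 ± 7.28, Kcnip at 278 ± 13.6, Kcnab at 278 ± 12.5 and Kcna at 214 ± 25.9 TPM. The Kcnk, Kcnip and Kcnab sums differed by less than their spread. Silent subunits other than Kcng were low, with Kcns at 7.74 ± 0.545, Kcnf at 0.534 ± 0.341 and Kcnv at 0.450 ± 0.161 TPM.

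The whole family took a smaller part of the RNA in both mutants. All Kcn genes together summed to 2653, 2741 and 2425 TPM in B6J, 2158, 2158 and 2346 TPM in B6J.Gtpbp1-/- and 2356, 2245 and 2104 TPM in B6J-Gtpbp2-/-. Every B6J library lay above every mutant library, and the mutants' ranges overlapped each other. Not every subfamily's sum is given here. As examples, Kcnd sums went from 159 ± 9.51 TPM to 121 ± 8.24 in B6J.Gtpbp1-/- and 118 ± 11.5 in B6J-Gtpbp2-/-, and Kcnip from 278 to 223 ± 8.49 and 216 ± 17.4 TPM. Kcns sums were higher in the mutants, from 7.74 to 18.1 ± 0.929 and 16.4 ± 0.978 TPM. Kcnk sums stayed within 1 SD at 281, 280 and 278 TPM. These sums were not tested as such.

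**Figure D1:**
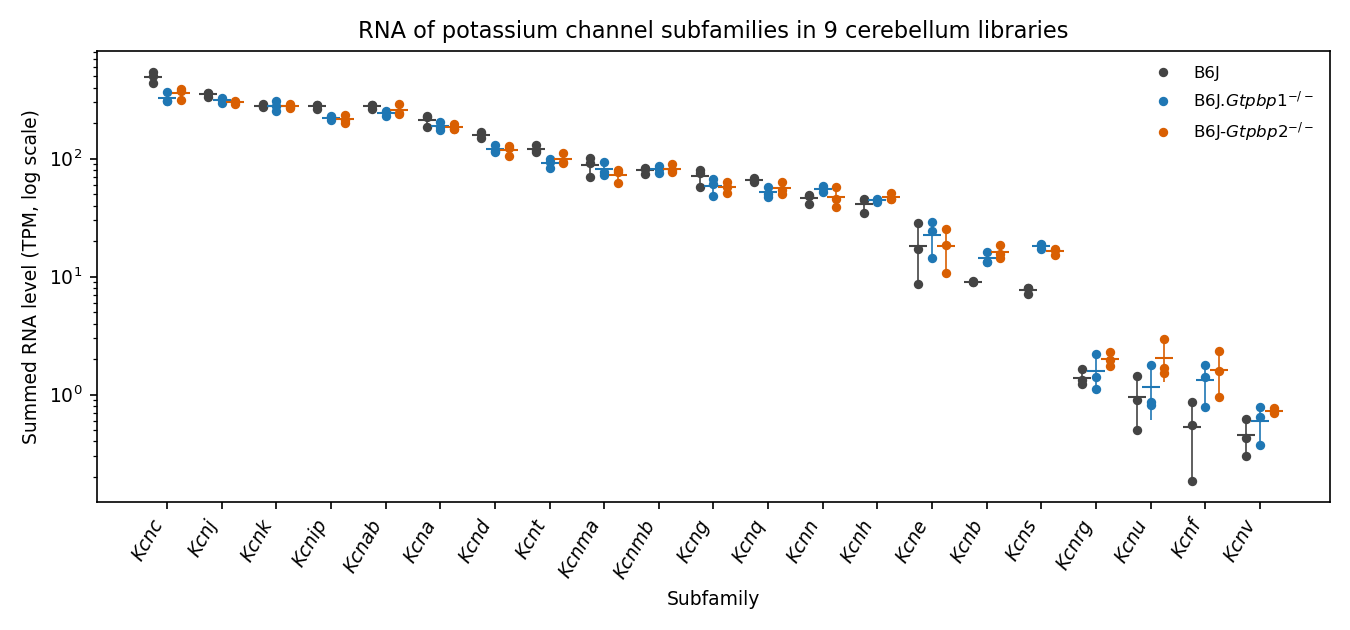
RNA of each Kcn subfamily as the sum of its members' TPM (log axis) in the 9 RNA libraries. Points are libraries, horizontal marks group means and vertical lines the SD (n = 3). Kcnc stands highest, at 494 TPM in B6J, and the mutant libraries of Kcns (means 18.1 and 16.4 TPM) lie above B6J (7.74 TPM).

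The first comparison asked which channel transcripts differed in B6J.Gtpbp1-/- cerebellum. Transcripts of abundant neuronal channels fell, among them Kcnt1, Kcnd2 with its partner Kcnip3, Kcnj9 and Kcnj12, each by 0.75 to 0.96 on the log2 scale. A smaller set of channels rose, among them Kcnt2, the second sodium-activated channel, and the silent subunit Kcns2. Of the 94 members, 87 passed the low-count filter and 28 were called, 9 higher and 19 lower. Among all 24577 genes tested, 13.8% were called, 5.90% higher and 7.93% lower. The median log2 fold change of the members was -0.06 against 0.03 for all genes, and 40 members had an unadjusted p under 0.05. The 7 members not tested, Kcna7, Kcne1, Kcne3, Kcng3, Kcnk16, Kcnk18 and Kcnk7, were near 0 in every library.

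In B6J-Gtpbp2-/- cerebellum, compared with the same B6J libraries, channels of the same classes were called. Kcnip3, Kcnj12, Kcnj9, Kcnt1 and Kcnd2 fell by 0.72 to 0.91, and Kcnt2, Kcng1, Kcnb2 and Kcns2 rose by 1.12 to 4.09. Here 90 members were tested and 24 called, 9 higher and 15 lower, where 8.63% of all 24859 genes tested were called, 3.61% higher and 5.02% lower. The median over members was 0.04 against 0.03 for all genes, and 41 had an unadjusted p under 0.05. Because both mutants were set against the same 3 B6J libraries, a chance deviation in those libraries would enter both comparisons. In a bulk tissue, fewer cells of a type and less RNA per cell cannot be told apart.

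Leaving out 1 library moved both counts: without Gtpbp1 replicate 2 the first fell to 16 and without B6J replicate 2 to 17, and without B6J replicate 1, B6J replicate 2 or Gtpbp2 replicate 3 the second fell to 15, 13 and 15. With sex as covariate the counts were 20 and 13, and with a block for replicate number 18 and 26. All B6J-Gtpbp2-/- libraries read as female. Under all alternatives run, 16 of the 28 members and 11 of the 24 passed the threshold each time, with the direction kept.

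Channels of the Kcnc group repolarise fast-spiking neurons. Kcnc1, needed for fast spiking in interneurons and in humans a cause of progressive myoclonus epilepsy, was at 179, 199 and 161 TPM in B6J, 120, 131 and 138 TPM in B6J.Gtpbp1-/- and 144, 152 and 128 TPM in B6J-Gtpbp2-/-. It showed no overlap with B6J in either mutant, with -0.51 ± 0.10 (adjusted p = 0.0033) and -0.40 ± 0.11 (adjusted p = 0.043), the latter call held in 8 of 14 alternatives. Kcnc2 and Kcnc4 were not called by edgeR, while DESeq2 called Kcnc4 lower in B6J.Gtpbp1-/- (-0.38, adjusted p = 0.0236); these are named after their values were seen.

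Kcna channels are low-threshold channels of axons and terminals. Kcna1, mutated in episodic ataxia, was at 83.5, 89.0 and 65.0 TPM in B6J, 53.4, 56.1 and 68.6 TPM in B6J.Gtpbp1-/- and 69.5, 60.4 and 60.9 TPM in B6J-Gtpbp2-/-. In TPM the third B6J library lay within the mutants' range, whereas on the normalised counts used for the test no library overlapped, and the fall was -0.58 ± 0.12 (adjusted p = 0.0082) and -0.47 ± 0.11 (adjusted p = 0.022). The Kcna1 call in B6J-Gtpbp2-/- held in 9 of 14 alternatives. Its partner in axons, Kcna2, fell by 0.35 and 0.48 (adjusted p = 0.031 and 0.010), from 94.7, 93.0 and 77 TPM in B6J to 71.5, 72.7 and 85.9 TPM and to 73.7, 70.8 and 65.5 TPM; the call in B6J.Gtpbp1-/- held in 6 of 14 alternatives. Kcna6 was not called (-0.19 in each mutant), and 39.6% of its exonic length overlaps the antisense gene Gm26673; the RNA kit did not mark strand, so reads from this stretch cannot be assigned. The other 5 members of this subfamily were below 5 TPM in B6J or not tested, and none was called by edgeR. DESeq2 called Kcna4 higher in B6J-Gtpbp2-/- (0.72, adjusted p = 0.0166), which is named here after its values were seen.

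The A-type channel Kcnd2 and the calcium-binding Kcnip subunits assemble into 1 complex in granule cells, and their transcripts fell side by side. Kcnd2 RNA was at 116, 116 and 110 TPM in B6J, 70.6, 71.7 and 82.5 TPM in B6J.Gtpbp1-/- and 82.5, 80.7 and 67.2 TPM in B6J-Gtpbp2-/-, with -0.75 ± 0.08 (adjusted p = 5.2e-05) and -0.72 ± 0.09 (adjusted p = 0.00078). Kcnip3, which also acts as a calcium-regulated repressor of transcription, was at 75.6, 78.8 and 63.5 TPM, then 44.4, 44.1 and 48.4 TPM, and 47.5, 47.8 and 34.0 TPM in the same order of genotypes. Its log2 fold changes were -0.84 ± 0.08 (adjusted p = 2.4e-05) and -0.91 ± 0.13 (adjusted p = 0.0022). The groups were well apart for both genes, with B6J above all 6 mutant libraries. Kcnip4, the most abundant of these subunits, was at 135, 130 and 123 TPM in B6J, 101, 97.1 and 106 TPM in B6J.Gtpbp1-/- and 93.6, 93.8 and 100 TPM in B6J-Gtpbp2-/- (-0.51 ± 0.07, adjusted p = 0.00042; -0.59 ± 0.07, adjusted p = 0.00082). Kcnd3, mutated in a spinocerebellar ataxia, was not called in either mutant (-0.11 ± 0.09 and -0.26 ± 0.10), nor were Kcnd1, Kcnip1 and Kcnip2.

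Subunits of the M-current, which damps repetitive firing, moved in different directions. Kcnq3 fell by 0.32 in B6J.Gtpbp1-/- (adjusted p = 0.025, a call held in 6 of 14 alternatives) and was at -0.28 ± 0.19 in B6J-Gtpbp2-/-, not called. Kcnq5, a further M-current subunit, rose in B6J-Gtpbp2-/- by 1.16 ± 0.24 (adjusted p = 0.014), a call held in 10 of 14 alternatives. It stood at 0.68 ± 0.24 in B6J.Gtpbp1-/- (adjusted p = 0.086 with edgeR and 0.0389 with DESeq2).

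The delayed rectifier Kcnb2 and the silent subunit Kcns2 rose in both mutants. Kcnb2 RNA was at 1.98, 2.74 and 3.06 TPM in B6J, 5.17, 6.01 and 7.89 TPM in B6J.Gtpbp1-/- and 7.41, 6.91 and 6.31 TPM in B6J-Gtpbp2-/-. All mutant libraries were above all B6J libraries, with 1.00 ± 0.19 (adjusted p = 0.0081) and 1.14 ± 0.15 (adjusted p = 0.0012). Kcns2, a silent subunit that slows Kcnb channels, was at 4.11, 5.46 and 5.22 TPM, then 11.3, 13.5 and 14.9 TPM, and 10.6, 13.2 and 12.3 TPM. Its rise of 1.26 ± 0.14 (adjusted p = 4.5e-05) and 1.12 ± 0.13 (adjusted p = 0.0006) gave the smallest adjusted p of any increase in B6J.Gtpbp1-/-, and the groups did not overlap. Kcns3 rose by 0.93 in B6J.Gtpbp1-/- (adjusted p = 0.039), which held in 6 of 14 alternatives, and was at 0.59 ± 0.29 in B6J-Gtpbp2-/-, not called. Kcns1, named here after its values were seen, was at 0.28 ± 0.28 and 0.34 ± 0.25 and was not called. Kcng1 rose by 2.16 and 2.72 (adjusted p = 0.042 and 0.016) from 13, 4 and 7 counts in the B6J libraries, calls that held in 5 and 11 of 14 alternatives, while the abundant Kcng4 fell by 0.51 in B6J-Gtpbp2-/- (adjusted p = 0.024, held in 9 of 14 alternatives). In B6J.Gtpbp1-/- Kcng4 was at -0.45 ± 0.15 (adjusted p = 0.089 with edgeR and 0.0071 with DESeq2).

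Members of the Kcnh group, related to the ether-a-go-go channel of flies, moved in different directions. Kcnh3, a forebrain-enriched member, was at 4.45, 5.82 and 3.81 TPM in B6J, 1.74, 2.37 and 2.91 TPM in B6J.Gtpbp1-/- and 4.09, 4.08 and 4.41 TPM in B6J-Gtpbp2-/-. It fell in B6J.Gtpbp1-/- (-0.87 ± 0.18, adjusted p = 0.0066), where no library overlapped B6J, and not in B6J-Gtpbp2-/- (-0.11 ± 0.15, adjusted p = 0.74). Kcnh7 and Kcnh4 rose in B6J.Gtpbp1-/- by 0.42 and 2.25 (adjusted p = 0.044 and 0.040), Kcnh4 from 5, 22 and 3 counts in B6J. These calls were fragile and held in 4 and 5 of 14 alternatives. Kcnh5 rose in B6J-Gtpbp2-/- by 2.12 ± 0.55 (adjusted p = 0.0496), a call held in 7 of 14. Kcnh5 was at 1.77 ± 0.56 in B6J.Gtpbp1-/- and Kcnh7 at 0.62 ± 0.18 in B6J-Gtpbp2-/-, not called by edgeR (adjusted p = 0.078 and 0.057) and called higher by DESeq2 (adjusted p = 0.0017 and 0.0059).

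Inward rectifiers of the Kcnj group set the resting potential. Kcnj9, a subunit of the G protein-gated channels of granule cells, gave the smallest adjusted p of any member in B6J.Gtpbp1-/-. Its RNA was at 54.7, 56.5 and 54.6 TPM in B6J, 34.1, 34.8 and 36.4 TPM in B6J.Gtpbp1-/- and 41.3, 35.8 and 31.8 TPM in B6J-Gtpbp2-/-. Every B6J library was well above every mutant library, with -0.86 ± 0.07 (adjusted p = 3.0e-06) and -0.80 ± 0.09 (adjusted p = 0.00043). Its G protein-gated relatives Kcnj3 and Kcnj6 were at -0.20 and -0.41 in B6J.Gtpbp1-/- and at -0.29 and -0.41 in B6J-Gtpbp2-/-, none of them called by edgeR, and 31.1% of the exonic length of Kcnj3 overlaps Gm26794. DESeq2 called Kcnj3 lower in B6J-Gtpbp2-/- (adjusted p = 0.0329). Kcnj12, a strong rectifier, was at 57.6, 55.9 and 45.8 TPM, then 30.4, 27.2 and 33.0 TPM, and 28.2, 36.2 and 33.4 TPM. No mutant library reached the lowest B6J library, and the fall was -0.96 ± 0.10 (adjusted p = 4.3e-05) and -0.85 ± 0.11 (adjusted p = 0.00096). Its close relative Kcnj2 passed the threshold narrowly in the other direction, by 0.74 ± 0.23 and 0.88 ± 0.24 (adjusted p = 0.0498 and 0.048), from 1.55, 1.74 and 2.91 TPM in B6J, and these calls held in 5 and 6 of 14 alternatives.

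Kcnj10, the main channel of astrocytes and Bergmann glia, was at 87.7, 89.4 and 84.8 TPM in B6J, 88.6, 96.7 and 99.3 TPM in B6J.Gtpbp1-/- and 97.6, 90.3 and 111 TPM in B6J-Gtpbp2-/-. On the test's scale the groups overlapped, with -0.04 ± 0.08 and 0.04 ± 0.09, and it was not called. Kcnj16, which joins it in glia, fell by 0.36 in B6J.Gtpbp1-/- (adjusted p = 0.045, held in 4 of 14 alternatives) and was at -0.39 ± 0.13 in B6J-Gtpbp2-/- (adjusted p = 0.087). Kcnj11, the pore of the ATP-sensitive channel, fell by 0.42 in B6J.Gtpbp1-/- (adjusted p = 0.013) and was at -0.39 ± 0.12 in B6J-Gtpbp2-/- (adjusted p = 0.072). DESeq2 called Kcnj16 and Kcnj11 in B6J-Gtpbp2-/- as well (adjusted p = 0.0377 and 0.0280). Kcnj8, the pericyte counterpart of Kcnj11, was at -0.01 ± 0.22 and -0.12 ± 0.25.

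Tandem-pore Kcnk channels carry background currents. Kcnk1, an abundant member, was at 158, 167 and 162 TPM in B6J, 140, 164 and 180 TPM in B6J.Gtpbp1-/- and 143, 169 and 160 TPM in B6J-Gtpbp2-/-, and was not called. Kcnk10 fell, with 19.8, 21 and 21.2 TPM in B6J, 11.8, 12.4 and 17.2 TPM in B6J.Gtpbp1-/- and 13.8, 15.4 and 14.2 TPM in B6J-Gtpbp2-/- (-0.71 ± 0.10, adjusted p = 0.00038; -0.65 ± 0.09, adjusted p = 0.001). Its mechanosensitive relative Kcnk2 rose instead. Kcnk2 was at 11.9, 14.0 and 17.9 TPM, then 28.5, 21.1 and 27.4 TPM, and 27.0, 22.3 and 25.8 TPM, with 0.83 ± 0.11 (adjusted p = 0.0003) and 0.84 ± 0.11 (adjusted p = 0.0011). Neither gene overlapped between B6J and a mutant, though 12.2% of the exonic length of Kcnk2 lies opposite A430027H14Rik. The acid-sensitive Kcnk3 fell by 0.35 and 0.45 (adjusted p = 0.013 and 0.021), calls that held in 11 and 10 of 14 alternatives. Kcnk9, its granule cell partner, was at 0.12 ± 0.12 and 0.45 ± 0.13, not called by edgeR, and DESeq2 called it higher in B6J-Gtpbp2-/- (adjusted p = 0.0111).

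Channels opened by intracellular sodium gave the clearest contrast between close relatives. Kcnt1 RNA was at 131, 114 and 117 TPM in B6J, 86.7, 90.7 and 72.9 TPM in B6J.Gtpbp1-/- and 102, 84.5 and 81.7 TPM in B6J-Gtpbp2-/-. On the count scale the gap was wider, at 300, 274 and 292 CPM in B6J against 169, 159 and 133 CPM and 207, 154 and 148 CPM. The log2 fold changes from counts were -0.91 ± 0.09 (adjusted p = 2.9e-05) and -0.77 ± 0.12 (adjusted p = 0.0028), and no library overlapped.

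Kcnt2, on chromosome 1, was close to undetected in B6J, at 0.208, 0.582 and 0.632 TPM, and at 7.03, 7.66 and 10.1 TPM in B6J.Gtpbp1-/- and 8.40, 8.74 and 9.86 TPM in B6J-Gtpbp2-/-. In counts this was 20, 55 and 75 in B6J against 623 to 742 in B6J.Gtpbp1-/- and 817 to 1049 in B6J-Gtpbp2-/-. All 6 mutant libraries were far above the highest B6J library, with log2 fold changes of 3.92 ± 0.38 (15.1-fold, adjusted p = 0.0003) and 4.09 ± 0.36 (17.0-fold, adjusted p = 0.00028). Most of the increase was in transcript Kcnt2-202, a protein_coding form of 5790 bases that went from a mean of 0.332 TPM to 5.75 and 6.77 TPM.

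Calcium-activated channels were not called by edgeR in either mutant. Kcnma1, the large-conductance channel, was at 92.6, 102 and 69.5 TPM in B6J, 77, 73.2 and 93.4 TPM in B6J.Gtpbp1-/- and 80.4, 76.3 and 61.9 TPM in B6J-Gtpbp2-/-, and the groups overlapped (-0.26 ± 0.12 and -0.41 ± 0.13, adjusted p = 0.20 and 0.090). With DESeq2 Kcnma1 was called in B6J-Gtpbp2-/- (adjusted p = 0.0185). Its neuronal auxiliary subunit Kcnmb4 was at -0.10 ± 0.09 and -0.12 ± 0.10, and the small-conductance channel Kcnn2 at 0.14 ± 0.10 and -0.16 ± 0.16. None of the 4 Kcnmb and 4 Kcnn genes was called by edgeR in RNA of either mutant, with 2 and 1 Kcnmb genes and no Kcnn gene at an unadjusted p under 0.05, and DESeq2 called Kcnmb1 in B6J.Gtpbp1-/- (0.98, adjusted p = 0.0401). Kcnmb3 was close to 0, with 0, 1 and 0 counts in B6J, 6, 19 and 6 in B6J.Gtpbp1-/- and 8, 12 and 11 in B6J-Gtpbp2-/-. It passed the low-count filter through the mutant libraries alone, which favours a high fold change, and was not called (4.52 ± 1.41 and 4.42 ± 1.36, adjusted p = 0.0502 and 0.0696), though some other settings called it higher. Of the 17 auxiliary and other members, 15 and 16 were tested and edgeR called 3 in each mutant, namely Kcnab1, Kcnip3 and Kcnip4, all lower, where 13.8% and 8.63% of all genes were called. The Kcnab1 calls held in 10 and 11 of 14 alternatives. In footprints of B6J-Gtpbp2-/- Kcnab1 was not called with all 6 libraries. Without B6J replicate 3 edgeR called it higher there (0.71, adjusted p = 0.0446), opposite to its RNA. DESeq2 added Kcnab3, lower in both mutants (adjusted p = 0.0484 and 0.0209), and Kcnmb1. Kcnab3, Kcnmb1 and Kcnmb3 are named here after their values were seen.

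Members that fell were mostly abundant and members that rose mostly rare. At a mean of at least 10 TPM over the 9 RNA libraries, 36 members were tested, and in B6J.Gtpbp1-/- 2 were called higher and 16 lower, with a median of -0.35. All 10883 genes at that level had a median of -0.06, with 792 called higher and 1713 lower. In B6J-Gtpbp2-/- the same 36 members gave 2 higher and 15 lower and a median of -0.40, against -0.06 and 450 higher and 1119 lower of 10899 genes. Below 10 TPM the medians were 0.23 in B6J.Gtpbp1-/-, with 7 higher and 3 lower of 51, and 0.48 in B6J-Gtpbp2-/-, with 7 called of 54, each of them higher (10 higher and 1 lower with DESeq2). Medians for all genes at that level were 0.18 and 0.19. Of 13694 such genes 657 were called higher and 236 lower in B6J.Gtpbp1-/-, and of 13960 in B6J-Gtpbp2-/- 448 were called higher and 129 lower. The sign of each median over these members was the same with DESeq2 and with upper quartile normalisation. Spearman's rho across genes between level and log2 fold change was -0.52 (n = 87) and -0.58 (n = 90) for the members and -0.25 and -0.26 for all genes; genes share their libraries, and the level itself includes the mutant libraries.

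**Figure D2:**
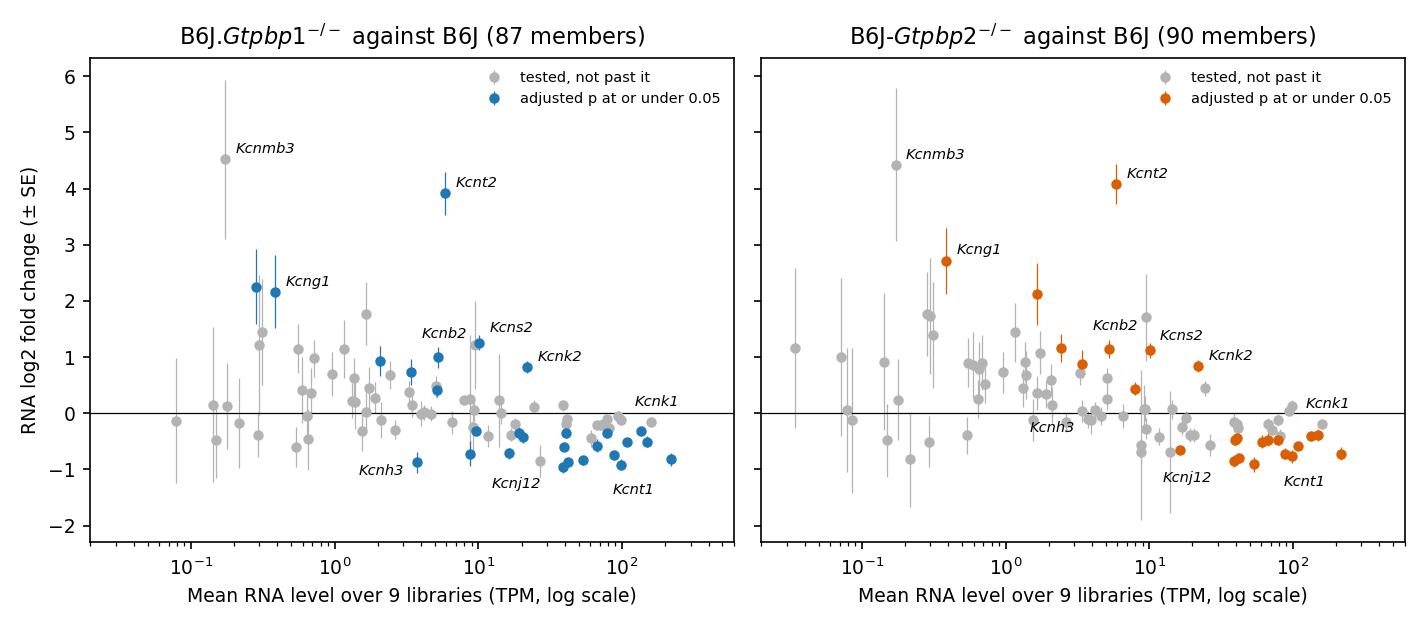
RNA log2 fold change (± SE) of each tested Kcn member against its mean TPM over the 9 RNA libraries (log axis), for B6J.Gtpbp1-/- (left, 87 members) and B6J-Gtpbp2-/- (right, 90 members), both against the same B6J libraries. Coloured points passed an adjusted p of 0.05; at 10 TPM and above these were 2 higher and 16 lower on the left and 2 higher and 15 lower on the right, also negative in median under the other scalings, and Kcnt2 stands at 3.92 and 4.09.

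Sums of granule neuron markers were lower in both mutants, while those of Purkinje cell and interneuron markers overlapped B6J. Granule neuron markers, whose most abundant gene was Cbln1, summed to 2682, 2622 and 3029 TPM in B6J.Gtpbp1-/- and 2786, 3024 and 2592 TPM in B6J-Gtpbp2-/-, below the 3942 to 3994 TPM of B6J, and 8 and 7 of the 10 genes fell, with medians of -0.56 and -0.53. Purkinje cell markers, led by Pcp4, summed to 6384, 5328 and 6879 TPM and 5702, 5897 and 4871 TPM, with 2 and 3 of 8 lower. Of 6 interneuron markers, led by Gad1, 3 were lower in each mutant, and the sums were 643, 646 and 535 TPM in B6J, 638, 527 and 549 TPM in B6J.Gtpbp1-/- and 551, 528 and 463 TPM in B6J-Gtpbp2-/-. Among all genes tested, 7.93% and 5.02% were called lower. No marker of these lists was at 0 in all libraries. Their part in the lower channel RNA was not tested.

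Markers of non-neuronal cells went in several directions. The 5 microglia genes, led by P2ry12, summed to 39.3, 41.0 and 51.9 TPM in B6J, 88.0, 76.2 and 71.5 TPM in B6J.Gtpbp1-/- and 80.1, 74.6 and 84.7 TPM in B6J-Gtpbp2-/-, with 3 and 2 of them higher. Endothelial genes (3, led by Cldn5) summed to 55.6, 55.6 and 58.2 TPM, then 82.1, 93.6 and 88.0 TPM, and 80.0, 103 and 109 TPM, with 2 higher in each mutant. The microglial tandem-pore channel Kcnk13 did not move with the microglia list and was at 0.14 ± 0.22 and 0.05 ± 0.20; it is named here after its values were seen. Pericyte genes (3, led by Rgs5) were at 146 to 148 TPM in B6J, 199 to 241 TPM in B6J.Gtpbp1-/- with 2 higher, and 148 to 257 TPM in B6J-Gtpbp2-/- with 0 called by edgeR, 1 at an unadjusted p under 0.05 and 1 by DESeq2. Oligodendrocyte genes (6, led by Mbp) fell in B6J.Gtpbp1-/-, 6 of 6, from 8095 to 9404 TPM in B6J to 6666 to 7752 TPM, and in B6J-Gtpbp2-/-, at 8341 to 11058 TPM, 0 were called by edgeR or DESeq2 and 0 had an unadjusted p under 0.05. The 2 oligodendrocyte precursor genes, led by Pdgfra, summed to 14.6, 14.3 and 11.1 TPM, then 17, 16.6 and 14.5 TPM, and 21.7, 17.8 and 18.2 TPM. Of these edgeR called 0 and 1 higher, 0 and 1 had an unadjusted p under 0.05 and DESeq2 called 0 and 1. Of 7 Bergmann glia and astrocyte genes, led by Slc1a3, 1 was higher in each mutant and 3 and 4 were lower, at 1699 to 1987 TPM in B6J, 1757 to 1929 TPM and 1615 to 1924 TPM. Among all genes tested, 5.90% and 3.61% were called higher and 7.93% and 5.02% lower. None of these lists had a gene at 0 in all libraries, and their part in the channel results was not tested.

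Proteins that bind, cluster or accompany these channels were followed as a list of 27 partner genes, of which 26 were tested in RNA. In B6J.Gtpbp1-/- 4 rose and 12 fell, and in B6J-Gtpbp2-/- 3 rose and 10 fell, with medians of -0.35 and -0.28, where 13.8% and 8.63% of all genes were called. Dpp6, the membrane partner of Kcnd channels, was at 135, 140 and 127 TPM in B6J, 95.4, 97.1 and 91.7 TPM in B6J.Gtpbp1-/- and 124, 94.6 and 106 TPM in B6J-Gtpbp2-/-, and fell by 0.65 and 0.46 (adjusted p = 0.00012 and 0.018). Abcc8, the sulfonylurea receptor that joins Kcnj11, fell by 0.98 and 0.81 (adjusted p = 1.3e-05 and 0.00058). Of the axonal Kcna complex, Adam11, Adam22 and Lgi3 fell in both mutants, whereas Lgi2 and Cntnap2, which clusters Kcna channels beside nodes of Ranvier, rose. Cntnap2 was at 24.2, 23.3 and 26.3 TPM in B6J, 40, 39.5 and 32.1 TPM in B6J.Gtpbp1-/- and 47.9, 35.0 and 37.1 TPM in B6J-Gtpbp2-/-, without overlap.

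The mutants were also compared with each other, which does not involve the B6J libraries. By edgeR 0 of 88 members tested were called in RNA, against 0.0595% of all genes, and 4 had an unadjusted p under 0.05. These were Kcnh3, Kcnk9, Kcnq5 and Kcng2, the last named after its values were seen. Kcnh3 was lower in B6J.Gtpbp1-/- than in B6J-Gtpbp2-/- by -0.76 (unadjusted p = 0.00088 and adjusted p = 0.60 with edgeR), and it was the 1 member called by DESeq2 (adjusted p = 0.0126). For the other members called in 1 mutant alone, a difference between the mutants was not shown by this test.

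Ribosome footprints count the fragments that ribosomes protect on the coding sequence of each gene. They follow the amount of messenger as well as the number of ribosomes on each copy. In B6J.Gtpbp1-/- the sodium-activated channels moved in opposite directions again, Kcnt1 down and Kcnt2 up, and these were the only calls among 79 members tested. That is 1 higher and 1 lower, where 0.745% of 13956 genes were called, 0.573% higher and 0.172% lower. The members' median was -0.07 against 0.01 for all genes, and 19 had an unadjusted p under 0.05. Kcnt1 footprints were at 182, 277 and 100 CPM in B6J and 44.2, 56.1 and 64.1 CPM in B6J.Gtpbp1-/- (-1.76 ± 0.31, adjusted p = 0.025). Kcnt2 footprints were at 4.92, 2.64 and 2.86 CPM in B6J and 11.5, 13.2 and 15 CPM in B6J.Gtpbp1-/- (1.94 ± 0.34, adjusted p = 0.021). Neither gene overlapped between the groups, yet the calls were fragile: the count was 0 to 2 when a library was left out and 0 with sex in the model, and DESeq2 called 4 members, adding Kcnd2 and Kcnip3.

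In B6J-Gtpbp2-/- footprints fell on Kcnd2, Kcnip3, Kcnj12 and Kcnc1, all abundant transcripts whose RNA fell as well. These 4 were the members called of 75 tested, 0 higher and 4 lower, where 2.94% of 13797 genes were called, 1.28% higher and 1.67% lower. The median was -0.13 against 0.01 for all genes, and 25 members had an unadjusted p under 0.05. Kcnd2 footprints were at 199, 312 and 223 CPM in B6J, 130, 119 and 139 CPM in B6J.Gtpbp1-/- and 98.5, 81.6 and 97.6 CPM in B6J-Gtpbp2-/-. Its fall in B6J-Gtpbp2-/- was -1.41 ± 0.18 (adjusted p = 0.00095) and passed the threshold under all 12 alternatives, while in B6J.Gtpbp1-/- it was -0.92 ± 0.20 (adjusted p = 0.058). All 6 mutant libraries lay below B6J.

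Kcnip3 footprints were at 86.6, 115 and 103 CPM in B6J, 64.0, 57.9 and 67.4 CPM in B6J.Gtpbp1-/- and 58.4, 48.7 and 46.6 CPM in B6J-Gtpbp2-/-, again with B6J on top (-1.0 ± 0.18, adjusted p = 0.0064 in B6J-Gtpbp2-/-). Kcnj12 was at 53.2, 98.4 and 59.3 CPM, then 43.8, 37.4 and 64.1 CPM, and 41.7, 33.0 and 36.1 CPM, with -0.93 ± 0.23 (adjusted p = 0.040) in B6J-Gtpbp2-/-. Kcnc1 was at 224, 434 and 269 CPM, then 168, 190 and 210 CPM, and 167, 182 and 133 CPM, with -0.95 ± 0.23 (adjusted p = 0.044). The Kcnip3, Kcnj12 and Kcnc1 calls held in 11, 6 and 7 of 12 alternatives, and those of Kcnj12 and Kcnc1 ended without B6J replicate 2. For these genes the B6J-Gtpbp2-/- libraries were all below B6J, and the second B6J library stood highest. With 1 library left out the count of calls ranged from 2 to 7, with sex in the model it was 1, and DESeq2 called 7, of which Kcnt2 was higher.

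**Figure D3:**
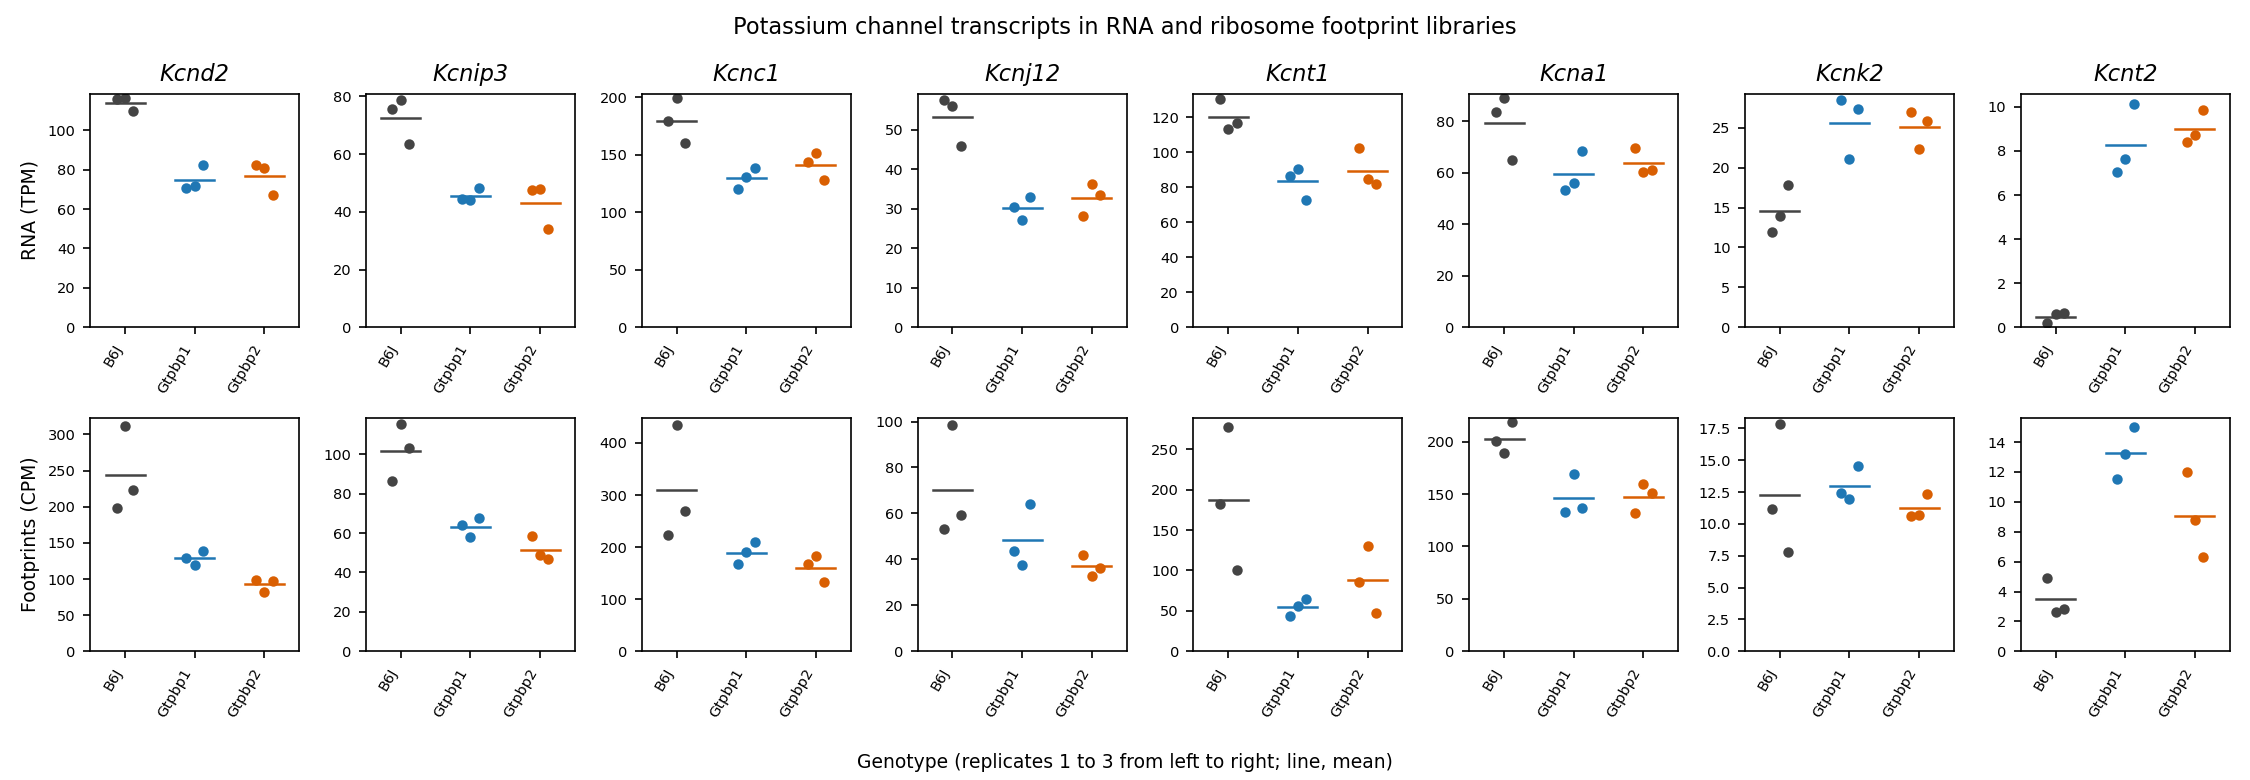
RNA (top, TPM) and ribosome footprints (bottom, CPM) of 8 Kcn members in each library of the 3 genotypes; points are replicates 1 to 3 and lines group means. Kcnd2 and Kcnip3 lie lower in both assays (Kcnd2 footprints 81.6 to 98.5 CPM in B6J-Gtpbp2-/- against 199 to 312 in B6J), and Kcna1 footprints lie lower in each mutant without a call. Kcnt2 is higher in both assays of each mutant, though edgeR called its footprints in B6J.Gtpbp1-/- alone.

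Members with lower or higher RNA did not all pass the test in footprints. Kcna1 footprints were at 201, 189 and 219 CPM in B6J, 133, 169 and 137 CPM, and 132, 159 and 151 CPM, which do not overlap B6J, yet the differences of -0.47 in each mutant were not called (adjusted p = 0.27 and 0.11). Kcnj9 footprints were at 40.5, 54.4 and 45.3 CPM, then 26.2, 29.6 and 35.9 CPM, and 31.9, 36.0 and 31.8 CPM, likewise without overlap and not called. For Kcnk2 and Kcnb2, whose RNA rose, footprints overlapped between all genotypes. Kcnk2 footprints were at 11.2, 17.8 and 7.78 CPM in B6J, 12.4, 11.9 and 14.5 CPM, and 10.6, 10.7 and 12.4 CPM, and Kcnb2 footprints at 11.6, 14.3 and 6.83 CPM, 9.51, 11.3 and 10 CPM, and 10.5, 13.7 and 6.48 CPM.

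Members called in RNA were followed into footprints. Of the 19 that fell in RNA of B6J.Gtpbp1-/-, 18 had a footprint log2 fold change below 0, with medians of -0.60 in RNA and -0.57 in footprints. Among all genes that fell in RNA and were tested in footprints, 1449 of 1798 were below 0. Of the 9 that rose, 7 were above 0 in footprints, with medians of 1.00 and 0.30, against 939 of 1144 among all genes that rose in RNA, with medians of 0.60 and 0.41. In B6J-Gtpbp2-/- 13 of the 15 that fell were below 0 in footprints (medians -0.59 and -0.76), against 981 of 1172 among all genes. Of the 9 that rose there, 5 were above 0 in footprints, and their median was 1.14 in RNA and 0.04 in footprints, while 602 of 712 such genes were above 0 in the whole data set. Across members, Spearman's rho between RNA and footprint log2 fold changes was 0.64 (n = 79) in B6J.Gtpbp1-/- and 0.40 (n = 75) in B6J-Gtpbp2-/-, and 0.47 and 0.41 across all genes.

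Marker lists were summed in footprints as well. Granule neuron markers summed to 5547, 8196 and 6038 CPM in B6J, 4457, 3374 and 5287 CPM in B6J.Gtpbp1-/- and 3456, 3290 and 2924 CPM in B6J-Gtpbp2-/- (10 genes, led by Fat2, none at 0). Of these genes 0 and 7 were called lower by edgeR, 7 and 8 had an unadjusted p under 0.05 and DESeq2 called 2 and 8. The 3 endothelial genes (led by Cldn5) summed to 215, 136 and 234 CPM in B6J, 507, 367 and 302 CPM in B6J.Gtpbp1-/- and 433, 348 and 379 CPM in B6J-Gtpbp2-/-, with 1 called higher in each. The 3 pericyte genes (led by Vtn) summed to 326, 371 and 389 CPM, then 963, 501 and 547 CPM, and 498, 473 and 468 CPM. Of these edgeR called 0 and 1 higher, 3 and 1 had an unadjusted p under 0.05, and DESeq2 called 0 and 1. Among all genes tested in footprints, 0.573% and 1.28% were called higher and 0.172% and 1.67% lower. The part of these lists in the channel results was not tested.

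Purkinje cell, interneuron and Bergmann glia lists had 0 calls by edgeR in footprints of either mutant. The 8 Purkinje cell genes (led by Itpr1) summed to 10040, 6733 and 13609 CPM in B6J, 12819, 13640 and 7375 CPM in B6J.Gtpbp1-/- and 15253, 15459 and 12606 CPM in B6J-Gtpbp2-/-, with 1 and 2 at an unadjusted p under 0.05 and 0 and 1 called by DESeq2. The second B6J library was the lowest B6J library for this list and the highest for granule neuron genes. The 6 interneuron genes (led by Gad1) summed to 1349 to 2315 CPM in B6J, 1355 to 2005 and 1853 to 2065 CPM, with 1 and 1 at that p and 0 and 0 by DESeq2. The 7 Bergmann glia and astrocyte genes (led by Slc1a3) summed to 3275 to 4110, 3897 to 4898 and 3522 to 4177 CPM, with 2 and 2 at that p and 1 and 1 by DESeq2. No gene of these lists was at 0 in all footprint libraries, and their part in the footprint results was not tested.

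Microglia, bone, muscle and choroid plexus genes had 0 calls by edgeR in footprints of either mutant, though several stood higher in B6J.Gtpbp1-/-. The 5 microglia genes (led by Csf1r) summed to 113, 148 and 118 CPM in B6J, 262, 168 and 326 CPM in B6J.Gtpbp1-/- and 155, 164 and 190 CPM in B6J-Gtpbp2-/-, with 5 and 2 at an unadjusted p under 0.05 and 2 and 0 called by DESeq2. The 5 bone genes (led by Col1a1) summed to 273, 658 and 886 CPM, then 1566, 1378 and 2620 CPM, and 606, 972 and 475 CPM, with 4 and 0 at that p and 1 and 0 by DESeq2. Every B6J.Gtpbp1-/- library lay above every B6J library in both lists. Muscle genes (6, led by Acta1) were at 3.87 to 46.9 CPM in sum, with 2 of 6 tested and 1 of 1 tested at that p and 1 and 1 by DESeq2. Choroid plexus genes (7, led by Ttr) ranged from 76.6 to 13807 CPM, with 0 and 0 by either measure. No gene of these lists was at 0 in all footprint libraries, and their part in the footprint results was not tested.

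**Figure D4:**
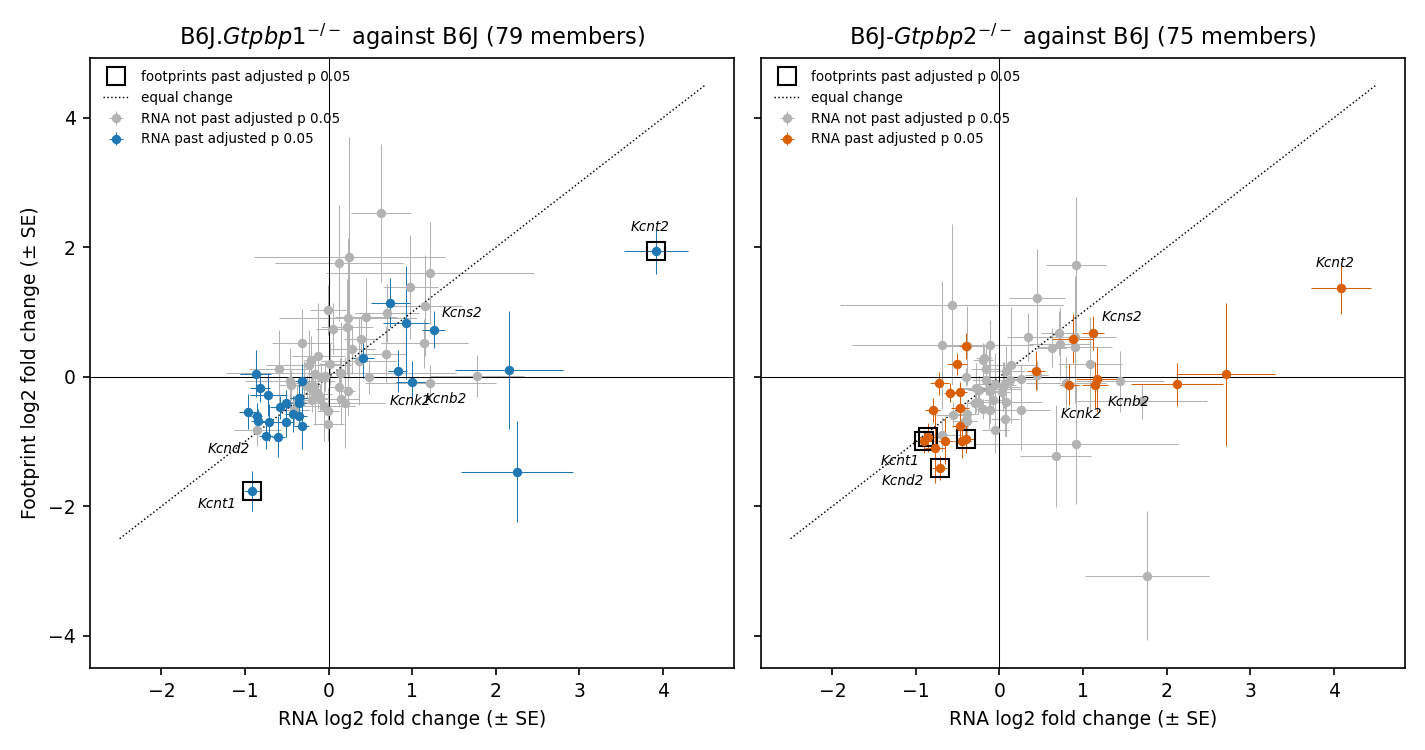
Footprint log2 fold change against RNA log2 fold change (both ± SE) of the Kcn members tested in both assays, for B6J.Gtpbp1-/- (79 members) and B6J-Gtpbp2-/- (75 members) against B6J. Squares mark the 2 and 4 members called in footprints and the dotted line equal change; Kcnt2 lies below the line at RNA 3.92 and footprint 1.94 on the left and 4.09 and 1.37 on the right.

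Partner genes, like all genes, gave fewer calls in footprints than in RNA. By edgeR 0 of 25 partners tested were called in B6J.Gtpbp1-/- (0.745% of all genes), where 9 had an unadjusted p under 0.05. In B6J-Gtpbp2-/- 3 were called (2.94% of all genes): Dpp6 and Lgi3 fell by 0.84 and 0.75 and Abcc9 rose by 0.92. Partners with higher RNA were not all higher in footprints: Lgi2 was at -0.13 and -0.05 and Hcn4 at -0.19 and -0.36 in B6J.Gtpbp1-/- and B6J-Gtpbp2-/-, and Cntnap2 at 0.36 and 0.07, none of them called.

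Between the mutants, edgeR called 0 of 80 members in footprints, where 0% of all 14142 genes were called. There were 8 members at an unadjusted p under 0.05, and DESeq2 called 0.

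Translation efficiency (TE), the change in footprints beyond that in RNA, was tested as an interaction of genotype and assay over 12 libraries. In B6J.Gtpbp1-/- edgeR called 0 of 68 members, where 0% of all genes were called, 9 members had an unadjusted p under 0.05, and DESeq2 called 1, Kcnt2. In B6J-Gtpbp2-/- edgeR called 0 of 64, where 0.00773% of all genes were called, 14 had an unadjusted p under 0.05, and DESeq2 again called Kcnt2 alone. Medians over the members were 0.01 and -0.18, against 0.03 for all genes in each, and 45 of the 64 members lay below 0 in B6J-Gtpbp2-/-. For Kcnt2 the TE difference was -1.97 in B6J.Gtpbp1-/- (adjusted p = 0.45 with edgeR and 0.0475 with DESeq2) and -2.71 in B6J-Gtpbp2-/- (adjusted p = 0.094 and 0.00082), its footprint fold change being smaller than that in RNA. Without footprint B6J replicate 3, edgeR called Kcnt1 lower in the first comparison, and in the second Kcnab1 higher and Kcnb2, Kcnk2 and Kcnt2 lower. The same setting raised the calls over all genes to 174 of 12989 (1.34%) and 158 of 12773 (1.24%).

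The codons of the selectivity filter were described as well. The longest annotated coding sequence of each gene was searched for 15 bases that read ACN, TCN, AGC or AGT, then any codon, then GGN, then TAC, TAT, TTC or TTT, then GGN, in frame. Such a stretch was found in 77 of the 94 members (81.9%) and in 572 of 21584 genes with a complete coding sequence (2.65%). It was present in every member of the pore-forming and silent subfamilies and in none of the 3 Kcnab, 5 Kcne, 4 Kcnip and 4 Kcnmb genes or of Kcnrg. Of the 14 Kcnk genes 11 held it at a pair of places, once for each of their pore loops. Potassium channel genes carry Kcn symbols, so a high share among the members was built into the choice. The match is a description of the letters and says nothing of regulation.

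The filter codons of members on which the results above turn are printed beside the direction of their RNA. Because the stretches were found by the pattern, their likeness in the capitals is set by the search. Each line gives the coding strand with 6 bases on either side in lower case and the 15 bases of the pattern in capitals, on GRCm38 with Gencode M21 coordinates, all of it coding exon.
Kcnt1, chr2:25894361-25894387, plus strand, RNA lower in both mutants: ttctcaACTGTGGGCTTCGGTgatgtg
Kcnt2, chr1:140425272-140425298, plus strand, RNA higher in both mutants: ttttctACTGTGGGCTTTGGGgatgtc
Kcnb2, chr1:15710040-15710066, plus strand, RNA higher in both mutants: atgaccACTGTGGGCTACGGTgacatt
Kcns2, chr15:34839606-34839632, plus strand, RNA higher in both mutants: atgaccACAGTTGGGTACGGAgatgtg
Kcnj9, chr1:172326178-172326204, minus strand, RNA lower in both mutants: gagaccACCATCGGCTATGGGcaccgg
Kcna1, chr6:126642222-126642248, minus strand, RNA lower in both mutants: atgaccACTGTGGGATACGGTgacatg
Kcnh3, chr15:99232923-99232949, plus strand, RNA lower in B6J.Gtpbp1-/-: ctcaccAGTGTGGGCTTCGGCaacgtg
Kcnk2, second pore loop, chr1:189256575-189256601, minus strand, RNA higher in both mutants: ctgacgACCATTGGATTTGGAgactac
Kcnk10, second pore loop, chr12:98440599-98440625, minus strand, RNA lower in both mutants: ctgaccACAGTAGGCTTTGGTgatttt

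The n-Tr20 tRNA that is mutated in all groups reads the arginine codon AGA, so the use of this codon was counted. The median member had 7.24 AGA codons per 1000 codons, against 11.2 for all 21584 genes. Across the members tested in RNA, Spearman's rho between AGA use and log2 fold change was 0.10 (n = 87) in B6J.Gtpbp1-/- and 0.06 (n = 90) in B6J-Gtpbp2-/-. In footprints it was 0.06 (n = 79) and 0.00 (n = 75), and across all genes the 4 values were 0.13, 0.11, 0.02 and 0.12.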

How the data were processed

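For RNA the authors assigned read pairs to Gencode transcripts with kallisto 0.42.4 and deposited the resulting estimated counts (expected counts), not normalised, per transcript. The deposited TPM were made by the authors from these by dividing by the deposited effective length and scaling each library. For footprints the authors removed ribosomal RNA reads (Bowtie2 2.2.3), aligned the rest to mm10 (HISAT2 2.1.0) and counted coding sequence per gene with featureCounts, per the submitters' processing notes, and the deposited counts are raw. Here transcript estimated counts and TPM were summed per gene, with sums of estimated counts rounded to whole numbers, and CPM were computed on TMM-scaled library sizes. A gene was tested when 3 or more of the 6 libraries compared held 5 or more counts (for TE 10 or more, in 3 or more libraries of each assay, without Hist genes), with edgeR 4.0.16 (TMM normalisation, glmQLFit and glmQLFTest) in R 4.3.3, without covariates. Alternatives were DESeq2 1.42.0, upper quartile normalisation, no filter, effective length offsets, protein-coding transcripts alone, all 9 libraries in 1 model, sex as covariate, a replicate block and each library left out. Sex was read from Ddx3y (above 10 CPM, male). The code was tested on simulated data.

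Genes named were every member called in any comparison, the most abundant member of each subfamily in B6J, the top 10 in B6J and a list of channels with known cerebellar roles; others are marked where they appear. The members, partner list and marker lists were chosen with earlier results of these data known. Coding sequences were the longest complete annotated form of each gene. Replicates were taken as separate mice. Some results for single members and sequences are not reported here.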

Additional observations from a re-analysis of the deposited data

How the results depend on the processing

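Called members kept their direction under every alternative run. The RNA count of B6J.Gtpbp1-/- was 28 and ranged from 16 to 34 with 1 library left out; that of B6J-Gtpbp2-/- was 24, ranged from 13 to 31, and was 13 with sex as covariate. The males in RNA were B6J replicate 2 and Gtpbp1 replicates 1 and 2, and in footprints B6J replicates 1 and 2 and Gtpbp1 replicate 1. Between the mutants DESeq2 called 1 member in RNA. The footprint count of B6J.Gtpbp1-/- was 2, 4 with DESeq2, 0 with sex as covariate and 0 to 2 with 1 library left out. That of B6J-Gtpbp2-/- was 4, 7 with DESeq2, 1 with sex as covariate and 2 to 7 with 1 library left out. TE counts were 0 in both mutants, 1 in each with DESeq2, and 0 to 1 and 0 to 4 with 1 library left out. The cause of these differences was not tested.

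The split of calls moved under other settings. Upper quartile normalisation gave 11 higher and 15 lower in RNA of B6J.Gtpbp1-/- against 9 and 19. DESeq2, which changes the test as well as the scaling, gave 1 higher and 3 lower footprint calls there against 1 and 1, and 1 higher and 6 lower in B6J-Gtpbp2-/- against 0 and 4. Over all genes in RNA, upper quartile normalisation called 1837 of 3349 higher in B6J.Gtpbp1-/- against 1449 of 3398, and 1074 of 2015 in B6J-Gtpbp2-/- against 898 of 2146, so the majority turned; the medians over abundant and rare members kept their sign.

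With the replicate block 18 members were called in RNA of B6J.Gtpbp1-/-, 0 in footprints of B6J.Gtpbp1-/- and 7 in footprints of B6J-Gtpbp2-/-. The numbers do not pair the samples: no pair of same-numbered libraries of an assay had a correlation of deviations over 0.1, and RNA and footprint libraries of the same number and genotype differed in sex in some cases.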

Other observations

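Some abundant members drew most of their TPM from transcripts not annotated as protein_coding. For Kcnab1 the protein_coding forms gave 20.1% of its TPM in B6J, and the processed transcript Kcnab1-204 stood at 117 ± 3.52 TPM (SD, n = 3) in the controls, 113 ± 13.7 TPM with Gtpbp1 lost and 102 ± 12.2 TPM with Gtpbp2 lost. The protein_coding Kcnab1-201 was at 29.7 ± 2.99, 18.1 ± 4.40 and 21.4 ± 4.60 TPM. Kcnt1 likewise held several retained-intron forms, and its most abundant protein_coding form Kcnt1-201 went from 32.2 ± 0.292 TPM in the controls to 15.6 ± 1.40 and 17.2 ± 2.29 TPM in the same order, while the nonsense_mediated_decay form Kcnt1-205 was at 12.5 ± 3.44, 14.8 ± 1.65 and 14.7 ± 0.989 TPM. These transcripts were named after their values were seen, and transcripts were not tested.

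A pair of epithelial members varied between libraries of the same genotype, as choroid plexus RNA did. Kcnj13 was at 23.8, 14.2 and 3.07 TPM in B6J, 24.1, 20.9 and 9.97 TPM in B6J.Gtpbp1-/- and 1.67, 15.2 and 11.7 TPM in B6J-Gtpbp2-/-. Kcne2, an auxiliary subunit, was at 16.3, 8.45 and 1.02 TPM, then 13.0, 17.6 and 3.51 TPM, and 0.737, 10.7 and 7.84 TPM. In each genotype the library with the lowest choroid plexus sum was also the lowest for both genes. Neither was called, and 49.1% of the exonic length of Kcnj13 overlaps Gigyf2.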
